A study of Homo sapiens with 12 samples.

Results

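The set comprised 9 genes through which breast cancer cells are known to act on bone: the cytokines IL11, IL6, LIF and CSF2, the hormone gene PTHLH, the Wnt inhibitor DKK1, the Notch ligand JAG1, the transcription factor RUNX2 and the decoy receptor TNFRSF11B. They were chosen by gene symbol, and all 9 were found among the 27412 genes with counts and were among the 14950 genes tested. Messenger RNA was measured by RNA sequencing in MDA-MB-231, a line of human breast cancer cells without hormone receptors or HER2 amplification that is widely used as a model of bone metastasis. Cells had been exposed for 24 h to 2 µM BITC with 1 µM ZA, to 1 µM ZA, to 2 µM BITC, or to vehicle (DMSO and water), with 3 libraries in each of these 4 groups. The labels abbreviate both compounds, which were taken to be benzyl isothiocyanate (BITC), an electrophile from cruciferous plants, and zoledronic acid (ZA), a bisphosphonate given against bone metastasis. All groups are the same line grown alone on plastic, so no bone, osteoclast or osteoblast took part, and the labels do not say whether the dishes of a group were separate cultures. The p-values therefore cover no more than the spread among these libraries, part or all of which may be technical.

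Bone is kept in balance by osteoclasts, which resorb it, and osteoblasts, which build it. Osteoblasts offer RANKL, encoded by TNFSF11, to the receptor RANK on osteoclast precursors, and osteoprotegerin, the product of TNFRSF11B, binds RANKL and blocks it. Tumour cells in bone shift this balance by secreting PTHrP, the product of PTHLH, and the cytokines interleukin 11, interleukin 6 and LIF, which signal through the shared receptor chain gp130, and GM-CSF, the product of CSF2. DKK1 blocks Wnt signalling, on which osteoblasts depend, and JAG1 on tumour cells engages Notch on bone cells.

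Of the 9 genes, IL11 and LIF were higher with BITC+ZA than with vehicle, and IL11 was also higher with BITC alone. DKK1 and PTHLH were lower with BITC+ZA than with ZA, while IL11 was higher. The PTHLH call rested on few counts and was lost when any single BITC+ZA library was left out. LIF was also higher with BITC+ZA than with BITC. IL6, CSF2, JAG1, RUNX2 and TNFRSF11B passed the test in no comparison. A gene was called where edgeR's quasi-likelihood test gave a Benjamini-Hochberg adjusted p below 0.05 over all genes tested. Each log2 fold change carries its standard error (SE) or 95% interval, and levels are CPM, which are counts scaled to library size with TMM factors, as mean ± SD with n = 3 where a mean is given. Genes were compared with each other per transcript length, in FPKM.

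The sequences below show what stands before IL11, IL6, CSF2 and DKK1 and after IL11 and CSF2. IL11 and DKK1 are printed as examples of called genes, and IL6 and CSF2 because they are cytokines of the same set that were not called. PTHLH and LIF were also called but are not printed. Promoter windows from RefSeq entries (GRCh38.p14) were kept for 7 of the 9 genes, without LIF and TNFRSF11B. The 250 bases before the start are given 5′ to 3′ on the strand of the gene, and capitals mark the motifs found.
IL11 upstream, chr19:55370464-55370713 (minus strand): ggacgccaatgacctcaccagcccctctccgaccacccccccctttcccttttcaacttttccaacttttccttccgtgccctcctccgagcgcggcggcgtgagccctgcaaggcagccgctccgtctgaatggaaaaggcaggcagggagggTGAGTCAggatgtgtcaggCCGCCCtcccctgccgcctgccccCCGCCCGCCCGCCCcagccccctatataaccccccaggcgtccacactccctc
IL6 upstream, chr7:22726950-22727199 (plus strand): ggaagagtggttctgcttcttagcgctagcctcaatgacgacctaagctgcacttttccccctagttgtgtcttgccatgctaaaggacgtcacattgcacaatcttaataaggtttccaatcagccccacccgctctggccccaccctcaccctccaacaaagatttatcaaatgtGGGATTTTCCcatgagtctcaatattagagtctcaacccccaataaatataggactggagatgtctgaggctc
CSF2 upstream, chr5:132073539-132073788 (plus strand): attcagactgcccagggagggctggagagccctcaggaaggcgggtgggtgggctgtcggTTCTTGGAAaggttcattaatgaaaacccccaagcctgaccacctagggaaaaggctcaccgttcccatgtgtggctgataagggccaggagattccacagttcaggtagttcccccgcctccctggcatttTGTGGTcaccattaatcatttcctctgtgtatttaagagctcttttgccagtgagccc
DKK1 upstream, chr10:52314031-52314280 (plus strand): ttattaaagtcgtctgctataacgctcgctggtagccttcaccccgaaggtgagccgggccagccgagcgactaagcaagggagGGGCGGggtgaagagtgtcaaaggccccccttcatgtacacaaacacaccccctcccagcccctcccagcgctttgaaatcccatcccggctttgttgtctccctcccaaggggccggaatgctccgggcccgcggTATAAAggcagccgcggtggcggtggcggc

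The motifs searched on both strands, in the 250 bases before and the 50 after each start, were AP-1 (TGANTCA), the cyclic AMP element (TGACGTCA), the core of the antioxidant response element (TGACNNNGC), STAT (TTCNNNGAA), RUNX (TGTGGT), the Notch effector CSL (GTGGGAA), NF-kB (a pattern of 10 letters whose match is in capitals in the IL6 sequence), the GC box (GGGCGG) and the TATA box (TATAAA). Their matches can overlap. The IL11 promoter holds an AP-1 match at −96 to −90 and 4 GC boxes in the reverse orientation between −77 and −40, of which the last 3 overlap. IL6 holds the NF-kB match at −73 to −64. CSF2 holds a STAT match at −190 to −182 and a RUNX match at −58 to −53. DKK1 holds a TATA box at −30 to −25 and a GC box at −166 to −161. Of 35116 windows of the same length, 7.71% held AP-1, 1.85% the cyclic AMP element, 13.3% the antioxidant core, 7.66% STAT, 13.1% RUNX, 6.25% CSL, 0.558% NF-kB, 45.0% a GC box and 11.5% TATA. The first of the 2 RUNX2 windows held an AP-1 match and 4 RUNX matches. The PTHLH and JAG1 windows held GC boxes and no other motif searched. These are matches of letters and no evidence that a factor binds there.

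The 3′ untranslated regions of several of these genes carry AU-rich repeats, of the kind known to shorten the life of cytokine messages. Only the genes with a promoter window were examined, so LIF and TNFRSF11B were not. The 30 bases with the densest run in IL11 and CSF2 are printed as DNA, with the repeats of ATTTA in capitals.
IL11 3′ end: ttccaaagccagatcttATTTATTTATTTA
CSF2 3′ end: ttttaaaatATTTATTTATTTATTTATTTA
CSF2 had 8 such pentamers, or 25.2 per kilobase, and IL6 had 6, or 13.99 per kilobase. IL11 had 9, or 5.56 per kilobase, against a median of 1.57 per kilobase over 18903 genes. PTHLH, with 7 pentamers at 6.89 per kilobase, lay above IL11, and JAG1, with 9 at 4.96 per kilobase, lay below it. DKK1, with 3 pentamers at 3.53 per kilobase, and RUNX2, with 11 at 2.91, were nearer to that median.

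DKK1 was by far the most abundant of the 9 messages per length. Its group means lay between 172 and 204 FPKM, while IL11 (9.44 to 13.9), LIF (9.73 to 13.1), RUNX2 (7.92 to 8.98), IL6 (7.17 to 8.84), CSF2 (6.43 to 8.02) and JAG1 (5.14 to 5.87) formed a middle range. Within it IL11 overlapped LIF, and RUNX2, IL6 and CSF2 overlapped each other, while JAG1 lay below them. TNFRSF11B (0.435 to 0.791 FPKM) and PTHLH (0.124 to 0.369 FPKM) were the lowest, with 18 to 57 and 6 to 25 counts per library. TNFSF11 itself was not among the genes with counts.

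Totals were 15874857 to 17375664 counts per library. The line's own markers were high, with group means of 209 to 241 FPKM for VIM and 246 to 282 FPKM for AXL, and of the luminal markers ESR1, FOXA1 and CDH1 were at or near 0 (group means of at most 0.090 FPKM), whereas KRT18 (103 to 123 FPKM), ERBB2 (7.86 to 9.15), EPCAM (4.96 to 6.99) and GATA3 (4.79 to 5.45) were not. SPARC, a listed mesenchymal marker, was at only 0.204 to 0.250 FPKM. Of 8 markers of osteoclasts and myeloid cells, ACP5, PTPRC, ITGAM and OCSTAMP were at or near 0 (at most 0.053 FPKM), while CTSK (1.83 to 2.30 FPKM), CSF1R (0.603 to 0.764), CD14 (0.402 to 0.544) and CALCR (0.193 to 0.368) had counts in every library. Of the osteoblast markers IBSP and ALPL were at most 0.040 FPKM, BGLAP was at 0.103 to 0.312 and COL1A1 at 0.896 to 1.01 FPKM. Libraries moved with GC content: the rank correlation, across genes, of a library's deviation with GC was 0.313 to 0.476 with BITC+ZA. It was negative in every BITC library (−0.596 to −0.211) and every vehicle library (−0.310 to −0.0199). ZA library 1 stood apart at −0.503, against 0.530 and 0.584 in the other ZA libraries. Mitochondrial genes took 4.73 to 4.88% of counts with BITC+ZA, 3.88 to 4.95% with ZA, 3.78 to 4.04% with BITC and 3.48 to 3.60% with vehicle. Their part in the results was not tested, and values without ZA library 1 or with a GC and length correction are given beside results that turn on them.

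**Figure D1:**
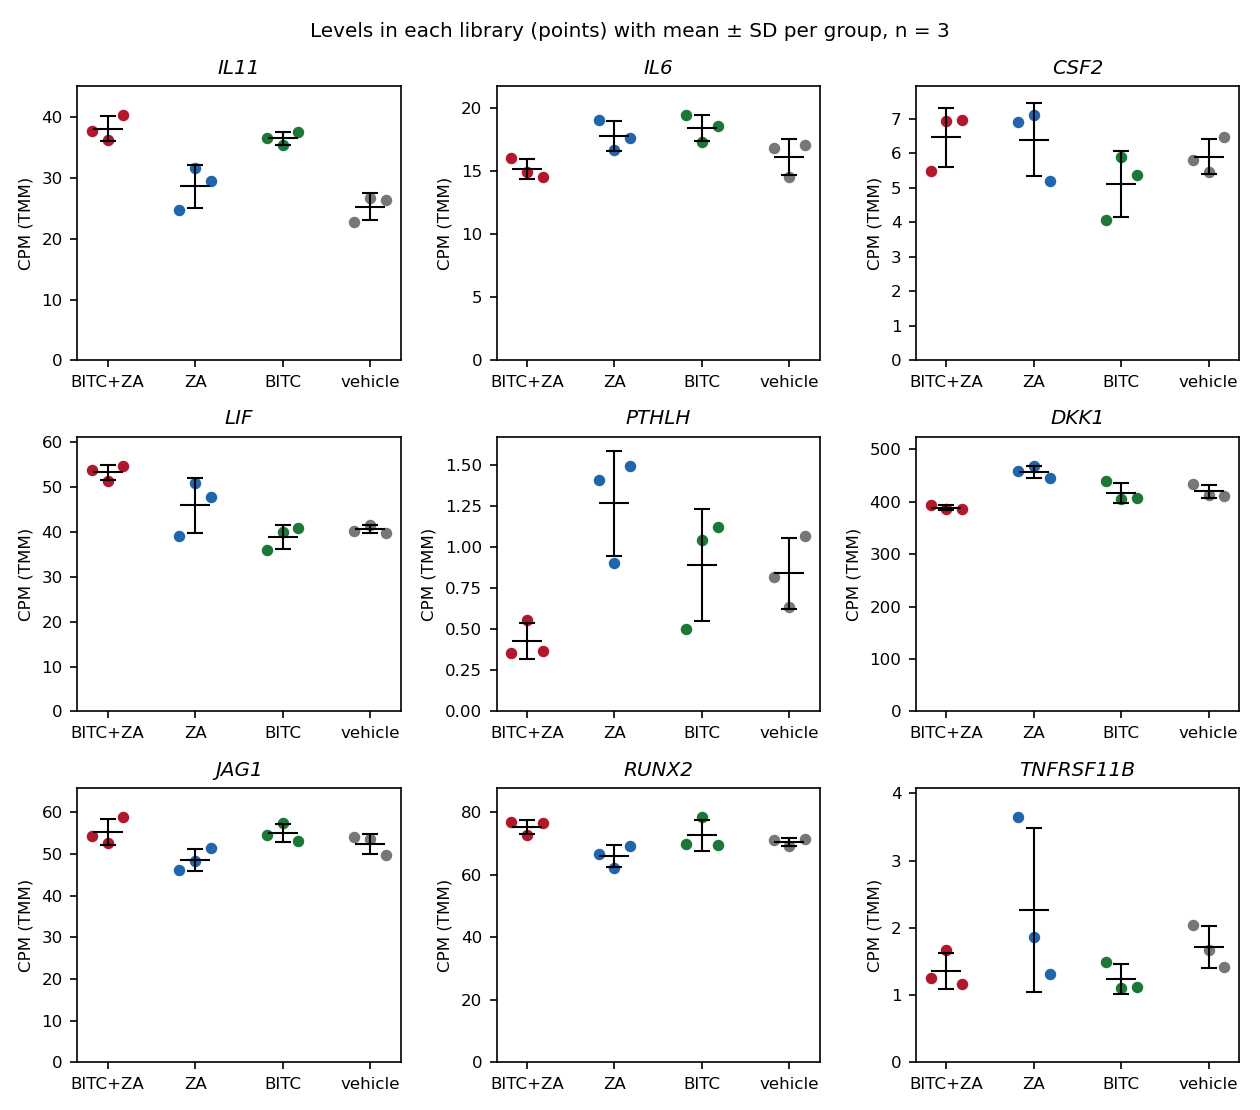
Level of each of the 9 genes in CPM on the y axis in the 12 libraries, as points, with the mean and SD of each group (n = 3) in black; groups run BITC+ZA, ZA, BITC, vehicle on the x axis, and each panel has its own scale starting at 0. IL11 stood at 35.4 to 40.2 CPM in the 6 libraries with BITC and at 22.7 to 31.6 CPM in the 6 without it.

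IL11 is a gp130 cytokine whose tumour-derived protein is known to promote osteoclast formation (chromosome 19, 55364389 to 55370463, minus strand, GRCh38). It stood at 37.7, 36.2 and 40.2 CPM with BITC+ZA, at 24.7, 31.6 and 29.4 CPM with ZA, at 36.5, 35.4 and 37.5 CPM with BITC and at 22.7, 26.7 and 26.3 CPM with vehicle. Every library that received BITC was above every library that did not, with or without ZA. With BITC the fold over vehicle was 1.44 (log2 0.53, SE 0.09, edgeR adjusted p = 0.000679). With BITC+ZA it was 1.51 over vehicle (log2 0.59, SE 0.09, adjusted p = 0.000116) and 1.33 over ZA (log2 0.41, SE 0.09, adjusted p = 0.00456). All 3 calls held under each of 22 alternatives.

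Under ZA alone IL11 did not pass the test: the log2 fold change over vehicle was 0.18, with an interval of −0.0034 to 0.36 (adjusted p = 0.340). Without ZA library 1, the lowest of the ZA libraries, it was 0.28 and was called (adjusted p = 0.0159). With the GC and length correction it was 0.09 (adjusted p = 0.676), and with that correction and without ZA library 1 it was 0.13 and not called (adjusted p = 0.414). ZA added to BITC gave a log2 difference of 0.06, with an interval of −0.11 to 0.24, and −0.04 with the correction. IL11 was lower with ZA than with BITC (log2 −0.35, SE 0.09, adjusted p = 0.0112), a call that was lost without BITC library 1 (adjusted p = 0.0532) or with only those groups in the fit (adjusted p = 0.0764). The interaction, the log2 amount by which BITC+ZA departs from adding up the effects of BITC and of ZA, was −0.12 with an interval of −0.37 to 0.13.

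LIF, another gp130 ligand, acts on both osteoblasts and osteoclasts (chromosome 22, 30240447 to 30246851, minus strand). It stood at 53.9, 51.5 and 54.7 CPM with BITC+ZA, at 39.1, 51.0 and 47.9 CPM with ZA, at 35.9, 40.1 and 40.9 CPM with BITC and at 40.3, 41.6 and 39.9 CPM with vehicle. The BITC+ZA libraries were the 3 highest of the 12, although the lowest of them lay close to ZA library 2. LIF was 1.31-fold higher with BITC+ZA than with vehicle (log2 0.39, SE 0.08, adjusted p = 0.00342) and 1.37-fold higher than with BITC (log2 0.45, SE 0.08, adjusted p = 0.00176). Both calls held under each of 22 alternatives, and with the GC and length correction the change over vehicle was 0.31 (adjusted p = 0.000606).

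BITC alone gave a log2 change of −0.06 in LIF, with an interval of −0.23 to 0.11. ZA alone gave 0.18 (SE 0.08, adjusted p = 0.270), and without ZA library 1 it gave 0.29 and was called (adjusted p = 0.00223). With the GC and length correction the value was 0.10 (adjusted p = 0.496), and with both changes it was 0.15 and not called (adjusted p = 0.185). The difference between BITC+ZA and ZA was 0.21 (adjusted p = 0.103); it was called with the GC and length correction (0.20, adjusted p = 0.0221) and without ZA library 2 (0.29, adjusted p = 0.0369). ZA exceeded BITC by 0.24 (adjusted p = 0.0556), by 0.35 without ZA library 1 (adjusted p = 8.19e-05) and by 0.12 with the correction (adjusted p = 0.254). The interaction in LIF was 0.27 (SE 0.11, adjusted p = 0.189). The exons of LIF overlap those of 2 antisense genes, whose reads cannot be told apart from its own without the strand setting; they had at most 12 counts per library each.

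IL6, the best-known gp130 cytokine and a driver of osteoclast formation (chromosome 7, 22725884 to 22732002, plus strand), passed the test in no comparison. It stood at 16.1, 14.9 and 14.6 CPM with BITC+ZA, at 19.1, 16.7 and 17.6 CPM with ZA, at 19.4, 17.3 and 18.6 CPM with BITC and at 16.8, 14.5 and 17.1 CPM with vehicle. All BITC libraries were above all vehicle libraries, and all BITC+ZA libraries were below all BITC and all ZA libraries, by small margins. The largest difference was −0.28 between BITC+ZA and BITC (SE 0.10, adjusted p = 0.0569), which was called without ZA library 1 (adjusted p = 0.0263) and in 4 other settings (adjusted p = 0.0262 to 0.0425). The interaction was −0.42 (SE 0.14, adjusted p = 0.0976). The exons of IL6 overlap those of 2 genes on the other strand, which had at most 5 and 7 counts per library.

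In BITC against vehicle, 1 of the 9 genes was called (IL11), against 1.78% of all genes tested, and the median log2 fold change was 0.04 over the 9 genes and 0.0015 over all genes. In BITC+ZA against vehicle, 2 of 9 were called (IL11 and LIF), against 4.90% of all genes, with medians of 0.08 and −0.0010. In ZA against vehicle edgeR called 0 of 9, against 1.06% of all genes. There 2 of the 9, LIF and DKK1, had an unadjusted p below 0.05, and DESeq2 also called 0. These comparisons share the vehicle libraries. Groups that did not overlap were common over all genes: 25.2% in BITC against vehicle, where 2 of the 9 did not overlap, 16.4% in ZA against vehicle (2 of 9) and 32.8% in BITC+ZA against vehicle (5 of 9). The shares were 21.2% in ZA against BITC (4 of 9), 38.1% in BITC+ZA against BITC (3 of 9) and 23.7% in BITC+ZA against ZA (7 of 9).

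**Figure D2:**
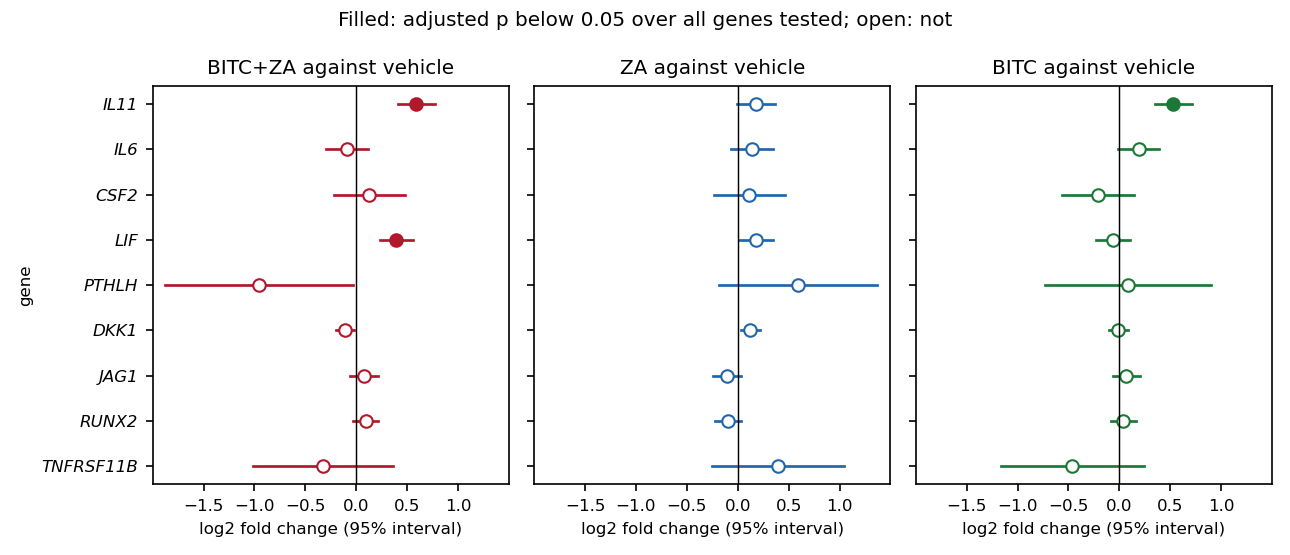
Log2 fold change against vehicle on the x axis, with its 95% interval, for each of the 9 genes on the y axis; panels give BITC+ZA, ZA and BITC, and filled points mark an adjusted p below 0.05. Filled points are IL11 and LIF for BITC+ZA and IL11 for BITC, and the intervals of PTHLH and TNFRSF11B are the widest.

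CSF2 encodes GM-CSF, a growth factor of the myeloid cells from which osteoclasts arise (chromosome 5, 132073790 to 132076170, plus strand). It stood at 5.48, 6.94 and 6.97 CPM with BITC+ZA, at 6.90, 7.09 and 5.19 CPM with ZA, at 4.05, 5.90 and 5.36 CPM with BITC and at 5.79, 5.46 and 6.45 CPM with vehicle. The groups overlapped in every comparison, and CSF2 was called under no setting. The log2 change under BITC was −0.21 with an interval of −0.56 to 0.15, and that under BITC+ZA was 0.13 with an interval of −0.21 to 0.47 (0.06 with the GC and length correction).

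DKK1 encodes a secreted antagonist of the Wnt co-receptors LRP5 and LRP6 (chromosome 10, 52314296 to 52318042, plus strand). It stood at 394, 386 and 386 CPM with BITC+ZA, at 459, 467 and 445 CPM with ZA, at 439, 405 and 406 CPM with BITC and at 435, 413 and 410 CPM with vehicle. The 3 ZA libraries were the highest of the 12 and the 3 BITC+ZA libraries the lowest. DKK1 was 0.850-fold with BITC+ZA relative to ZA (log2 −0.23, SE 0.04, adjusted p = 0.00191), a call that held under each of 22 alternatives with values of −0.25 to −0.17. That comparison called 3 of the 9 genes (IL11, DKK1 and PTHLH), against 6.95% of all genes tested.

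Against vehicle, DKK1 changed by −0.11 with BITC+ZA (SE 0.04, adjusted p = 0.159) and by 0.12 with ZA (SE 0.04, adjusted p = 0.159). Neither was called, although without ZA library 1 both were (adjusted p = 0.0173 and 0.0168), and the authors' deposited table gives −0.11 with an adjusted p of 0.00309 for BITC+ZA against vehicle. Under BITC alone the change was −0.0084, with an interval of −0.10 to 0.08. ZA exceeded BITC by 0.13 (adjusted p = 0.0549), and was called in 7 of 22 alternatives, among them the GC and length correction (0.16, adjusted p = 0.00109). The interaction was −0.23 (SE 0.06, adjusted p = 0.0497), and DKK1 was the 1 of the 9 genes called there, against 2.84% of all genes. That call held in 5 of 21 alternatives; with the GC and length correction the interaction was −0.09 (adjusted p = 0.349), and leaving out any library other than ZA library 1 or 3 raised the adjusted p to between 0.0561 and 0.166. The antisense gene PRKG1-AS1, whose exons overlap DKK1, had 28 to 55 counts per library, against 6229 to 7774 for DKK1.

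PTHLH encodes PTHrP, which makes osteoblasts present RANKL and is the classical osteolytic hormone of breast cancer (chromosome 12, 27958084 to 27972705, minus strand). Its counts were 6, 9 and 6 with BITC+ZA, 22, 15 and 25 with ZA, 8, 17 and 18 with BITC and 14, 11 and 18 with vehicle. The BITC+ZA libraries lay below all ZA and all vehicle libraries but overlapped BITC library 1. In CPM, PTHLH averaged 0.428 ± 0.112 with BITC+ZA and 1.27 ± 0.318 with ZA, a log2 difference of −1.55 (SE 0.43, interval −2.42 to −0.67, adjusted p = 0.0265). The call was lost without ZA library 3 (adjusted p = 0.0751), without BITC+ZA library 1, 2 or 3 (0.0965, 0.0614 and 0.115) and with only those groups in the fit (0.0737), and DESeq2 gave no adjusted p. No other comparison of PTHLH was called, with −0.96 for BITC+ZA against vehicle (interval −1.88 to −0.0363) and 0.59 for ZA against vehicle (interval −0.19 to 1.37). The exons of PTHLH overlap those of an antisense gene, AC008011.2, which was not among the genes with counts; without the strand setting its reads cannot be told apart from the few of PTHLH.

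JAG1 is a Notch ligand (chromosome 20, 10637684 to 10673999, minus strand). It stood at 54.3, 52.7 and 58.8 CPM with BITC+ZA, at 46.1, 48.3 and 51.4 CPM with ZA, at 54.5, 57.3 and 53.2 CPM with BITC and at 54.0, 53.5 and 49.7 CPM with vehicle. The ZA libraries were below all BITC and all BITC+ZA libraries and overlapped vehicle. JAG1 was called under no setting, and its log2 change over vehicle was 0.08 with BITC+ZA (interval −0.06 to 0.21) and −0.11 with ZA (interval −0.25 to 0.03; −0.05 with the GC and length correction). Its exons also overlap an antisense gene, which was not among the genes with counts.

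RUNX2, the master transcription factor of osteoblasts, is expressed by bone-seeking breast cancer cells (chromosome 6, 45328157 to 45664349, plus strand). It stood at 76.8, 72.6 and 76.4 CPM with BITC+ZA, at 66.7, 62.1 and 69.1 CPM with ZA, at 69.9, 78.4 and 69.5 CPM with BITC and at 71.2, 69.2 and 71.5 CPM with vehicle. All ZA libraries lay below all others, although ZA library 3 (69.14 CPM) was almost level with vehicle library 2 (69.16 CPM). No difference was called; the largest was 0.19 between BITC+ZA and ZA (SE 0.06, adjusted p = 0.0585), which DESeq2 called (adjusted p = 0.0437), as did the fits without ZA library 1 (0.0240) or 3 (0.0370).

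TNFRSF11B encodes osteoprotegerin, the soluble decoy of RANKL (chromosome 8, 118923557 to 118952200, minus strand). Its counts were 21, 27 and 19 with BITC+ZA, 57, 31 and 22 with ZA, 24, 18 and 18 with BITC and 35, 29 and 24 with vehicle. ZA library 1 alone stood above the rest, and the groups overlapped in every comparison. The log2 change over vehicle was −0.33 with BITC+ZA (interval −1.02 to 0.36), 0.40 with ZA (interval −0.25 to 1.05) and −0.46 with BITC (interval −1.16 to 0.24). ZA exceeded BITC by 0.86 (adjusted p = 0.0932), and without ZA library 3 by 1.14, which was called (adjusted p = 0.0467).

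Between ZA and BITC, 1 of the 9 genes was called (IL11, lower with ZA), against 10.5% of all genes tested. Between BITC+ZA and BITC, 1 was called (LIF, higher), against 14.7% of all genes. Both shares lie near those backgrounds.

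**Figure D3:**
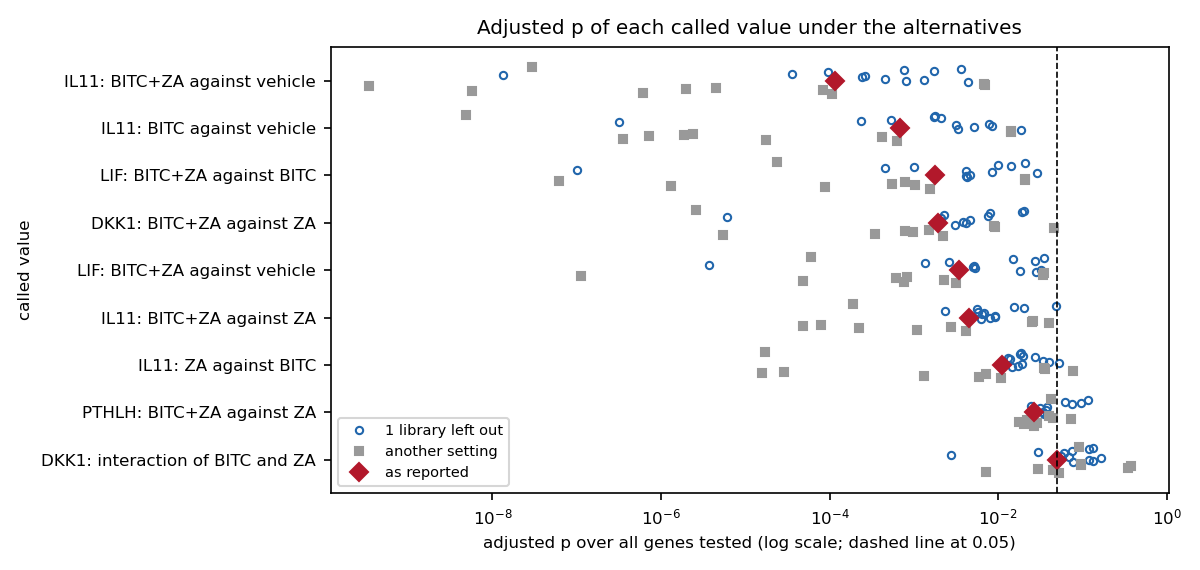
Adjusted p on a log x axis for each of the 9 calls made among these genes (y axis), as reported (red diamonds), with 1 library left out (blue circles) and under other settings (grey squares); the dashed line is at 0.05. IL11 in BITC against vehicle and the IL11, LIF and DKK1 calls of BITC+ZA stay left of the line throughout, whereas IL11 in ZA against BITC, the PTHLH call and the DKK1 interaction cross it.

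Among 14 other genes of the gp130 family with counts, 13 were tested. In BITC+ZA against vehicle 1 was called higher and 0 lower, with a list median of 0.08 against −0.0010 over all genes; in BITC and in ZA against vehicle edgeR and DESeq2 each called 0, with 1 and 3 genes at an unadjusted p below 0.05. The gene called was CLCF1, a cytokine that signals through gp130 and the LIF receptor, at 25.4 ± 1.66 CPM with BITC+ZA, 23.0 ± 2.54 with ZA, 18.5 ± 0.691 with BITC and 18.4 ± 0.945 with vehicle. Its log2 change over vehicle was 0.47 (SE 0.09, adjusted p = 0.00277), and over BITC it was 0.46 (SE 0.09, adjusted p = 0.00391), and both held under each of 22 alternatives. In BITC+ZA against BITC the list had 3 genes higher (CLCF1, the kinase TYK2 and the feedback inhibitor SOCS3) and 2 lower (the kinase JAK1 and IL6ST, which encodes gp130), or 5 of 13, against 14.7% of all genes tested. The calls of TYK2, SOCS3 and IL6ST were lost with the GC and length correction, and TYK2 (0.27), SOCS3 (0.31), JAK1 (−0.17) and IL6ST (−0.18) each lost the call when 1 of at least 3 libraries was left out (adjusted p up to 0.463 over all alternatives).

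The receptors for these cytokines differed in level per length. IL6ST was at 38.1 FPKM with BITC+ZA and 43.5 FPKM with vehicle, and LIFR at 6.37 and 6.78 FPKM. The specific chains IL11RA (0.722 and 0.696 FPKM) and IL6R (0.190 and 0.172 FPKM) were low in the same groups.

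The GM-CSF receptor chain CSF2RA was at 6.85 FPKM with BITC+ZA and 8.09 FPKM with vehicle, and CSF2RB at 0.0118 and 0.00777 FPKM. In the list of colony stimulating factors and receptors, edgeR called 0 of 5 tested genes in every comparison and in the interaction, and so did DESeq2, with at most 1 gene at an unadjusted p below 0.05. Of 3 tested genes of the RANK axis both tools called 0 throughout, again with at most 1 unadjusted. Of 5 tested RUNX factors and bone matrix genes edgeR called 0 throughout, with at most 2 unadjusted, and DESeq2 called 1 in ZA against BITC and 1 in BITC+ZA against ZA. TNFRSF11A, the gene of RANK, was at 1.00 FPKM with BITC+ZA and 0.854 FPKM with vehicle. Among 5 tested genes around PTHrP, TGFBR1, a receptor of TGF-beta, which raises PTHrP output in bone, was lower with BITC+ZA than with vehicle (−0.19, adjusted p = 0.0330), a call lost in 8 of 22 alternatives (adjusted p up to 0.163), among them the GC and length correction (−0.13, adjusted p = 0.0603).

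In the Notch list, 11 of 16 genes were tested. HES1, a direct target of Notch, averaged 46.9 ± 1.53 CPM with BITC+ZA, 38.8 ± 0.597 with ZA, 29.6 ± 2.36 with BITC and 37.2 ± 1.02 with vehicle. It was the only gene of the list that edgeR called higher with BITC+ZA than with vehicle (0.33, SE 0.07, adjusted p = 0.00491) and the only one called lower with BITC (−0.33, SE 0.07, adjusted p = 0.0132), where DESeq2 also called NOTCH2. Leaving out vehicle library 1, vehicle library 3 or BITC library 2 ended the BITC call (adjusted p up to 0.135), and the BITC+ZA call held under each of 22 alternatives. NOTCH2, a Notch receptor, was lower with ZA than with vehicle, at 572 ± 35.1 and 687 ± 26.2 CPM (−0.27, SE 0.05, adjusted p = 0.00806), a call lost in 6 of 22 alternatives, among them those without vehicle library 1 or 2 or ZA library 2 (adjusted p up to 0.157). With the GC and length correction it was called at −0.15 (adjusted p = 0.0103). The list medians were −0.10 for BITC+ZA, −0.06 for ZA and −0.13 for BITC, each against vehicle, with 0 to 1 genes called in either direction.

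In the Wnt list, edgeR and DESeq2 called 0 of 10 tested genes in each comparison with vehicle, with 1 or 2 genes at an unadjusted p below 0.05. In BITC+ZA against BITC edgeR called 1 of the 10 higher and 2 lower, against 14.7% of all genes tested. The Wnt effectors CTNNB1 (−0.20, adjusted p = 0.00711) and LEF1 (−1.06, adjusted p = 0.0161) were lower and KREMEN2, a receptor of DKK proteins, was higher (0.71, adjusted p = 0.0468). DESeq2 called only CTNNB1 there and gave LEF1 no adjusted p. CTNNB1 lost the call without BITC library 1 (adjusted p = 0.0606), LEF1 without BITC library 1 or 2 or BITC+ZA library 3 (up to 0.0974), and KREMEN2 in 14 of 22 alternatives (up to 0.237).

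Of 20 other factors of osteolysis and bone metastasis, 13 were tested. CXCL8, which encodes interleukin 8, averaged 23.6 ± 1.75 CPM with BITC+ZA, 27.5 ± 3.43 with ZA, 34.4 ± 1.40 with BITC and 19.3 ± 0.839 with vehicle. The changes over vehicle were 0.29 with BITC+ZA (adjusted p = 0.0686), 0.51 with ZA (adjusted p = 0.00738; lost without vehicle library 1 and in 3 other settings, up to 0.144) and 0.83 with BITC (adjusted p = 1.64e-06). TGFB2, a TGF-beta ligand, averaged 117 ± 1.22 CPM with BITC+ZA, 136 ± 4.07 with ZA, 134 ± 4.83 with BITC and 153 ± 2.27 with vehicle. It was lower with BITC+ZA than with vehicle (−0.38, SE 0.05, adjusted p = 1.47e-05), a call that held under each of 22 alternatives. It was also lower with BITC (−0.20, adjusted p = 0.0286), a call lost when any 1 vehicle or BITC library was left out (adjusted p up to 0.137). CXCL8 and TGFB2 were the only genes of this list that edgeR called against vehicle; DESeq2 also called CTGF in all 3 comparisons and TGFB2 with ZA.

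**Figure D4:**
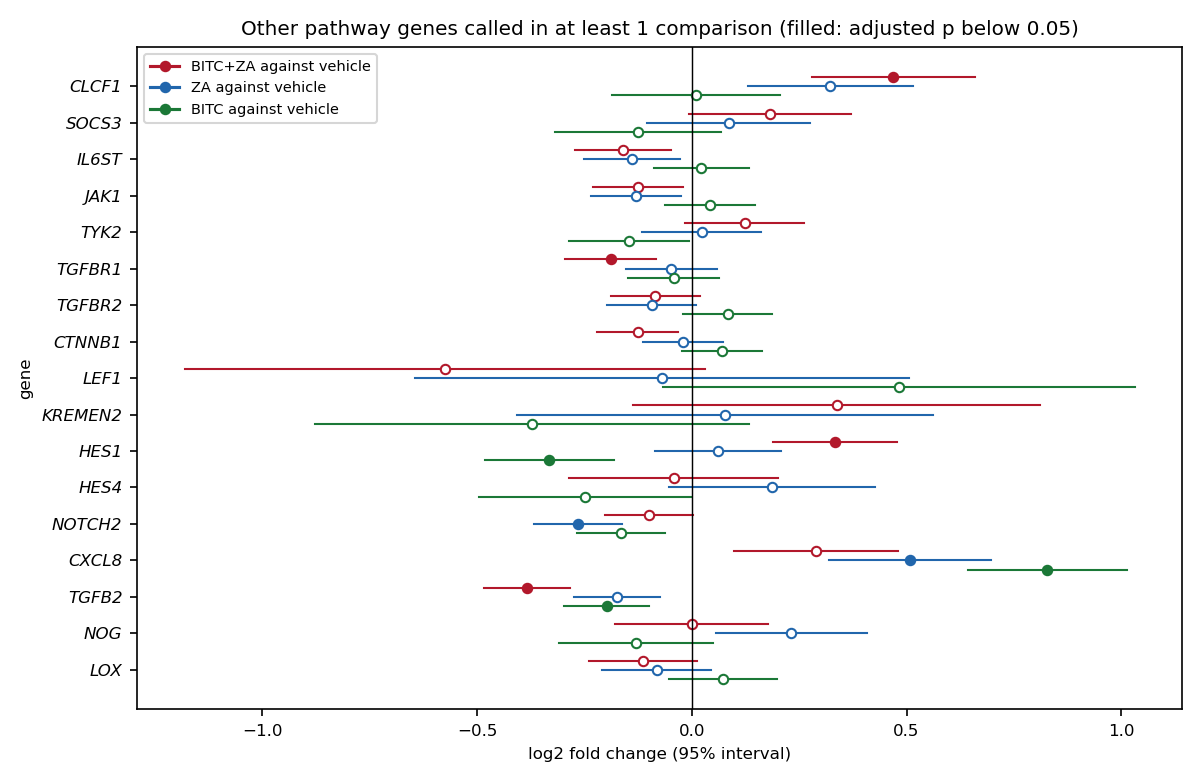
Log2 fold change against vehicle on the x axis, with its 95% interval, for the 17 other pathway genes (y axis) called in at least 1 comparison; colours give BITC+ZA, ZA and BITC, and filled points mark an adjusted p below 0.05. HES1 has filled points on opposite sides of 0 for BITC+ZA (0.33) and BITC (−0.33), and CXCL8 has its largest value for BITC (0.83).

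The genes whose log2 CPM followed that of each of the 9 most closely over the 12 libraries were taken from 10700 genes by Pearson's r, which all share the same groups and scaling. For IL11 they included SQSTM1 (0.983) and TRIM16 (0.956). For LIF they included PLEKHG4 (0.979) and WASH8P (0.970), and for DKK1 they were SLC25A5 (0.960), TMA16 (0.952) and NPC2 (0.945). The closest was ERLEC1 for IL6 (0.939), SETD5 for RUNX2 (0.943), MSN for JAG1 (0.906), REXO2 for TNFRSF11B (0.898), PLGRKT for PTHLH (0.883) and VPS39 for CSF2 (0.819).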

How the data were processed

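The submitters' processing notes name HISAT2, DESeq2 1.20.0 and the build GRCh38 (hg38). Not given in the sources used here are the strand setting, the annotation release and how reads were counted. Per the file headers, the authors deposited raw counts per gene for the 6 libraries of each pairwise table, beside log2 fold changes and p-values of their own; a value of the authors is printed only where so named. They also deposited FPKM, fragments scaled by gene length and library total. The tables hold normalized counts too, a signal divided by the authors' size factors, which was not used here. Raw counts were joined over the 6 tables by gene identifier, with 0 conflicts; 4593 absent values were entered as 0. No column of values lacked a sample.

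The test on these counts was that of edgeR 4.0.16 under R 4.3.3 (TMM, filterByExpr, robust quasi-likelihood F test, two-sided) in 1 model of the 4 groups and 12 libraries, without a replicate block. The labels do not say whether equal replicate numbers mark libraries handled together. Calls were made at an adjusted p below 0.05 over 14950 genes. Numbers of calls under the alternatives, which included DESeq2 1.42.0 and limma 3.58.1, are in the closing section. The pipeline was tested on simulated data. Named genes were the 9 members, other listed genes called in a comparison and, from the 3 genes closest in pattern to each member, 1 to 3 (some are not reported here); receptor levels and marker genes were added after their values were seen. The members and lists were chosen with earlier results of these data known. Overlaps, GC content and 3′ ends came from GENCODE 29 and promoters from RefSeq. Intervals cover the spread between libraries only.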

Additional observations from a re-analysis of the deposited data

Results flagged for a closer look

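The interaction of BITC and ZA, a test of whether the change under 1 compound differs with the other present, was called for DKK1 and for 3 genes of the lists. For DKK1 it was −0.23 (edgeR adjusted p = 0.0497), for HES1 0.61 (0.00240), for NOTCH2 0.33 (0.0119) and for CXCL8 −1.05 (0.000153). HES1 and CXCL8 kept the call under each of 21 alternatives, NOTCH2 under 14 and DKK1 under 5. NOTCH2 lost it without vehicle library 1, without BITC+ZA library 3, in both limma fits and in each GC and length correction (adjusted p up to 0.195), where its value fell to 0.12 at the lowest. The gap of single samples was not tested in groups of 3 libraries; ZA library 1 nevertheless differed from the other ZA libraries with a chi-square per gene of 15.7 and 14.1, against 3.08 between those other libraries.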

How the results depend on the processing

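The log2 fold changes of the 9 genes in the 6 comparisons and the interaction, with those of the called list genes, made 98 values, recomputed under 22 alternatives: of 2124 recomputed values 1901 kept their sign and side of the threshold or stayed uncalled, 193 lost the call, 30 gained it and 0 called values turned round; 29 of the uncalled changed sign. Without a filter on low counts, genes called were 494 in BITC against vehicle, 395 in ZA against vehicle and 706 in the interaction; of the 9 genes, those called were 2 in ZA against BITC. With DESeq2, genes called were 460 in ZA against vehicle and 719 in the interaction; of the 9 genes, those called were 2 in ZA against BITC. With the DESeq2 size factors in edgeR, of the 9 genes, those called were 0 in the interaction. With the replicate block, of the 9 genes, those called were 3 in ZA against BITC and 2 in BITC+ZA against BITC. With the GC and length correction, genes called were 633 in BITC against vehicle, 330 in ZA against vehicle, 1322 in BITC+ZA against vehicle and 1666 in BITC+ZA against ZA; of the 9 genes, those called were 2 in ZA against BITC and 0 in the interaction. With the replicate block and that correction together, genes called were 612 in BITC against vehicle, 297 in ZA against vehicle, 1280 in BITC+ZA against vehicle and 1613 in BITC+ZA against ZA; of the 9 genes, those called were 2 in ZA against BITC and 0 in the interaction. With only the groups compared in the fit, genes called were 1397 in BITC against vehicle, 1 in ZA against vehicle, 2793 in BITC+ZA against vehicle, 181 in ZA against BITC, 3979 in BITC+ZA against BITC and 229 in BITC+ZA against ZA; of the 9 genes, those called were 0 in ZA against BITC and 3 in BITC+ZA against BITC. With limma on log2(FPKM + 1), genes called were 126 in BITC against vehicle, 1 in ZA against vehicle, 767 in ZA against BITC, 602 in BITC+ZA against ZA and 14 in the interaction; of the 9 genes, those called were 2 in BITC+ZA against BITC and 0 in the interaction. With limma on log2(FPKM + 0.1), genes called were 127 in BITC against vehicle, 1 in ZA against vehicle, 772 in ZA against BITC, 603 in BITC+ZA against ZA and 14 in the interaction; of the 9 genes, those called were 2 in BITC+ZA against BITC and 0 in the interaction. With the correction and ZA library 1 left out, a setting chosen after seeing the data, genes called were 1264 in BITC against vehicle, 935 in ZA against vehicle, 1886 in BITC+ZA against vehicle, 2576 in ZA against BITC, 1734 in BITC+ZA against ZA and 645 in the interaction; of the 9 genes, those called were 1 in ZA against vehicle, 2 in ZA against BITC and 0 in the interaction. Leaving out each library in turn gave numbers of called genes of 102 to 1496 in BITC against vehicle, 1 to 2489 in ZA against vehicle, 288 to 2234 in BITC+ZA against vehicle, 380 to 4525 in ZA against BITC, 525 to 4116 in BITC+ZA against BITC, 367 to 1940 in BITC+ZA against ZA and 96 to 921 in the interaction. Of the 9 genes, leaving out each library called 1 each time in BITC against vehicle, and 0 to 3 in ZA against vehicle, 2 to 3 in BITC+ZA against vehicle, 1 to 3 in ZA against BITC, 1 to 3 in BITC+ZA against BITC, 2 to 4 in BITC+ZA against ZA and 0 to 1 in the interaction. Deviations of same-numbered libraries correlated at −0.228 to 0.180. Libraries of a group also differed in their trend with GC content, so these correlations cannot decide whether equal numbers mark shared handling. The replicate block on its own changed no other call of the 9 genes. Apart from the fits that left out each library in turn, numbers called are listed here only where they moved by more than a set ratio. Smaller moves are therefore missing from the list. With the GC and length correction LIF was also called in BITC+ZA against ZA. With only the groups compared in the fit DKK1 was also called in BITC+ZA against vehicle and in BITC+ZA against BITC. The cause of these changes was not tested. PTHLH and TNFRSF11B had the lowest counts of the 9 genes and the widest intervals; what change could be detected at those counts was not tested.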

Other observations

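The authors' deposited tables, which come from a fit of 6 libraries at a time, give IL11 a log2 change of 0.53 with an adjusted p of 3.15e-06 for BITC against vehicle, and LIF 0.39 with an adjusted p of 3.49e-06 for BITC+ZA against vehicle. For DKK1 in BITC+ZA against BITC the authors' deposited table gives −0.11 with an adjusted p of 0.0237. That comparison was not called here with all 12 libraries (−0.10, edgeR adjusted p = 0.122) and stood at −0.00092 with the GC and length correction (adjusted p = 0.992). It was called in 2 of 22 alternatives, without ZA library 1 and with only those groups in the fit (lowest edgeR adjusted p = 0.0193). For PTHLH in BITC+ZA against ZA the authors' deposited table gives −1.56 with an unadjusted p of 0.00955. The adjusted value in that table is not used, because it exceeds those of genes with larger p-values, such as RUNX2 (0.0175, adjusted 0.163).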
